A study of Homo sapiens with 4 samples.

Results

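The lysosome of U251 cells was followed through 50 genes, which were picked by symbol from a table of 15575 genes. They are the transcription factors MITF, TFEB and TFE3, 9 proteins of the lysosomal membrane or of the vesicles that exchange with it (among them GPNMB, LAMP1 and CD63), 33 lumenal hydrolases with their protein partners, and 5 subunits of the proton pump. All 50 had a row in the table, and 49 passed the filter on low counts. CTSS, the protease cathepsin S, did not, with 6, 2, 7 and 3 counts in the 4 libraries.

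U251 is an established human glioblastoma (GBM) cell line. Total RNA was sequenced from cells transduced with a lentiviral control shRNA (Ctrl, from a pGreen vector per the labels, 2 libraries) and from cells transduced with an shRNA against the arginine methyltransferase PRMT3 (PRMT3-KD, 2 libraries). Per the study's legend to its heatmap of this comparison, and per its supplement, the U251 cells were examined at 72 h. The comparison was made by the study to find what PRMT3 loss changes in the transcriptome of GBM cells. Which hairpin was used is not given in the sources used here, so the 2 PRMT3-KD libraries may share 1 hairpin and any effect particular to it. Whether the libraries of a group came from separate cultures is also not given, so the spread between them may be technical.

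The lysosome is an acidic organelle in which hydrolases break down proteins, glycans, lipids and nucleic acids delivered by endocytosis and autophagy. A proton pump, the V-ATPase, acidifies the lumen, and heavily glycosylated membrane proteins such as LAMP1 and LAMP2 line its inner face. MITF, TFEB and TFE3 belong to the MiT-TFE family of basic helix-loop-helix factors, which are held in the cytoplasm by mTORC1 signalling at the lysosome and, once in the nucleus, bind E-box-like elements near many lysosomal genes. GPNMB is a transmembrane glycoprotein known as a target of this family and is abundant in melanocytes, osteoclasts and lipid-laden macrophages.

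Total counts were 24804250 to 29756313 per library. PRMT3 itself had 535 and 535 counts in Ctrl and 77 and 45 in PRMT3-KD, or means of 19.4 and 2.31 CPM (counts scaled to a common library size), a log2 difference of -3.08 (SE 0.314, edgeR adjusted p = 0.0177). The 2 groups were unequally uniform. Divided by its degrees of freedom, the chi-square of the counts between the Ctrl libraries was 1.42, somewhat over the 1 that counting noise alone would give, and that between the PRMT3-KD libraries was 66.4. With either Ctrl library left out, the spread came from the PRMT3-KD pair alone, and edgeR then placed none of the genes past the threshold used here, with 14 and 13 members still under an unadjusted p of 0.05. Of 8 astrocytic glioma markers, 7 were in the table, with summed levels of 8312 to 8329 CPM in Ctrl and 7318 to 7737 CPM in PRMT3-KD. VIM, NES, SOX2 and CD44 made up nearly all of this sum, while AQP4 had at most 1 count in a library. GFAP averaged 13.7 CPM in Ctrl against 3.32 CPM under knockdown. Its PRMT3-KD libraries were at 1.26 and 5.39 CPM, and it did not pass the test (edgeR adjusted p = 0.096). The cell type markers that bear on GPNMB are given beside it.

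Levels are in CPM, the gene's share of its library's counts after scaling by TMM factors, so that libraries can be set side by side. A gene is said to have risen or fallen where edgeR's quasi-likelihood test gave a Benjamini-Hochberg adjusted p under 0.05 over all 13172 genes tested and the change was over 1.5-fold, which is 0.585 on the log2 scale. Each log2 difference is PRMT3-KD minus Ctrl, and its error is a standard error (SE) from the fit.

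By these limits 8 of the 49 tested members rose and 1 fell, where 4.97% of all genes tested rose and 5.97% fell. The members and the gene lists below were chosen with earlier results of these data known, so comparisons with all genes are a description. The risen members were GPNMB, NPC1, CD63, CTSH, SGSH, GAA, GLB1 and PSAP, and the fallen member was LAMP1. With no limit on fold, 16 members were higher and 2 lower at an adjusted p under 0.05, beside 8.39% and 8.91% of all genes. The median log2 difference was 0.41 over the tested members, with 40 above 0 and 9 below, and 0.0055 over all genes tested. The middle of the members' distribution, from the 25th to the 75th percentile, ran from 0.07 to 0.58 on the log2 scale, while that of all genes ran from -0.30 to 0.29. Both PRMT3-KD libraries lay above both Ctrl libraries for 32 members and below them for 7, which 33.3% and 33.8% of all genes did, and the groups overlapped for the remaining 10. Summed over the 50 members, the level was 7121 and 7143 CPM in the Ctrl libraries and 9075 and 8885 CPM in the PRMT3-KD libraries. In bulk RNA of this kind, a change in the mix of cells and a change in the RNA of each cell cannot be told apart.

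**Figure D1:**
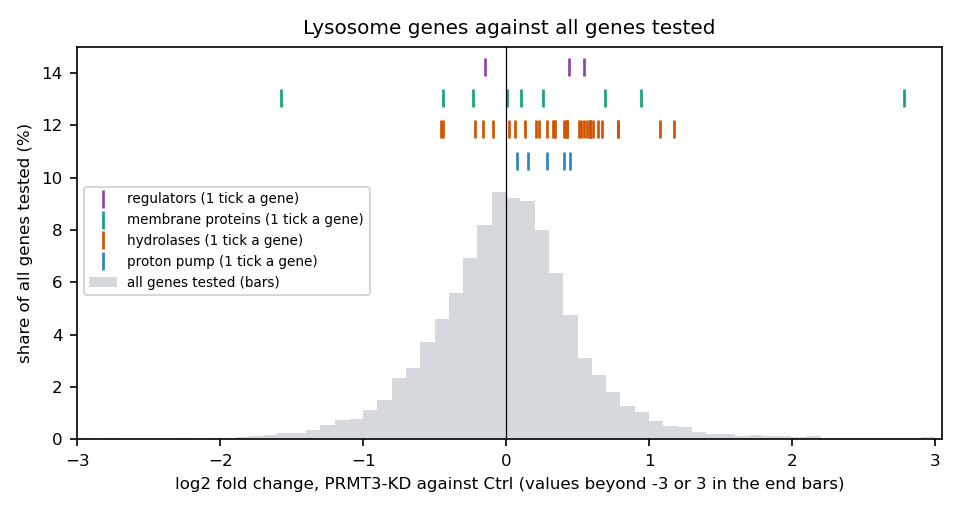
Distribution of log2 differences between PRMT3-KD and Ctrl (x axis) for all 13172 genes tested, as bars giving the share of genes in percent (y axis), with 1 coloured tick above the bars for each tested lysosome gene, in a row for each role. Most hydrolase ticks stand to the right of 0, around the members' median of 0.41, whereas the membrane protein ticks run from LAMP1 at -1.57 to GPNMB at 2.79.

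The promoters of some members hold elements that MiT-TFE factors are known to bind, and these are shown here for that reason. RefSeq promoters (GRCh38.p14, 250 bases before to 50 after a start) matched 36 of the 50 members. The core of the CLEAR element, TCACGTG on either strand, was present in 10 of the 36 (27.78%), in 3.71% of all 35116 promoters in the table and, counted by gene as for the members, in 7.12% of the 10103 tested genes that matched. The M-box, TCATGTG on either strand, was present in 7 of the 36 (19.44%), in 2.92% of all promoters and in 2.56% of the tested genes that matched. The M-box differs from the CLEAR core at its central base, so the 2 words cannot match at the same letters, but CTSA held both. Stretches of 30 bases of these promoters were placed in the genome build of the counts, GRCh37, by exact match and are written on the gene's strand with the matched word in capitals, where CACATGA and CACGTGA are the words as read from the other strand. Each lies upstream of the RefSeq start of its gene, and the distances are from the first matched base to that start.

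The GPNMB stretches lie at chr7:23286260-23286289 and chr7:23286321-23286350 on the plus strand, with M-boxes 123 and 62 bases upstream.
GPNMB, distal: tgagtcataagCACATGAgttgtaagaggt
GPNMB, proximal: cttaataccatCACATGAtcctccccgagg
The M-box stretch of CD63 lies at chr12:56122877-56122906 on the minus strand, 102 bases upstream, and the distal one of GRN at chr17:42422437-42422466 on the plus strand, 222 bases upstream. A further M-box of GRN, 206 bases upstream, is not shown.
CD63: tgttaccgcgtCACATGAgggaggccggcg
GRN: tgtcccgacgtCACATGAttctccaatcac
The CLEAR stretches shown are those of LAMP1 at chr13:113951514-113951543, GAA at chr17:78075292-78075321 and MCOLN1 at chr19:7587457-7587486, all on the plus strand and 29, 77 and 42 bases upstream, and of CTSD at chr11:1785186-1785215 on the minus strand, 47 bases upstream. Further CLEAR words of LAMP1, and of GAA and MCOLN1 at 32 and 15 bases upstream, are not shown.
LAMP1: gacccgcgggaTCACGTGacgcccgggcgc
GAA: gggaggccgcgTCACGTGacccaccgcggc
MCOLN1: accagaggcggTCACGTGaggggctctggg
CTSD: ccggccgcgccCACGTGAccggtccgggtg

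The 10 members with a CLEAR core were LAMP1, MCOLN1, CLN3, CTSA, CTSD, CTSF, GAA, NEU1, ARSB and ATP6V0D1. The log2 difference was below 0 for LAMP1 and MCOLN1 and above 0 for the others of these 10. Past both limits GAA rose and LAMP1 fell. LAMP1 holds the word 6 times on its own strand. Of the 7 with an M-box (GPNMB, CD63, SCARB2, CTSA, TPP1, PPT1 and GRN), GPNMB and CD63 rose and none fell. Of all genes tested, 4.97% rose and 5.97% fell. The part of MiT-TFE factors in these differences was not tested. A match says that these letters stand in the window and not that a factor was bound there.

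None of the 3 MiT-TFE factors among the members passed both limits. MITF, the family member best known from melanocytes, was at 26.4 and 26.0 CPM in Ctrl and 34.7 and 36.3 CPM in PRMT3-KD, a log2 difference of 0.44 (SE 0.086, edgeR adjusted p = 0.039). TFEB, known as a regulator of lysosome formation and autophagy, was at 7.94 and 8.07 CPM in Ctrl and 11.6 and 11.8 CPM in PRMT3-KD, a log2 difference of 0.55 (SE 0.118, edgeR adjusted p = 0.047). For both the groups were apart, and the adjusted p was under 0.05 with a change of less than 1.5-fold. TFEB was over that p with DESeq2 (adjusted p = 0.074), with limma-voom (0.069), with library totals alone (0.072) and with the filter of at least 1 count in any library (0.051), and MITF with library totals alone (0.061). TFE3 had 99.6 and 95.7 CPM in Ctrl and 83.8 and 92.8 CPM in PRMT3-KD, a log2 difference of -0.14 (SE 0.086, edgeR adjusted p = 0.289) that did not pass the test. Per kilobase of transcript, TFE3 was the most abundant of the 3 in Ctrl at 29.7 CPM per kb, against 5.46 for MITF and 3.43 for TFEB. The counts are of RNA and hold nothing on the position of these factors in the cell, by which they are known to be regulated.

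The membrane proteins moved in both directions, with 3 risen, 1 fallen and 5 past neither limit, where 4.97% of all genes rose and 5.97% fell. GPNMB (chr7:23275586-23314727, plus strand, GRCh37) had the largest difference of all members. It was at 23.2 and 21.9 CPM in Ctrl and at 216 and 95.1 CPM in PRMT3-KD, 22.5 ± 0.908 against 155 ± 85.3 CPM (SD, n = 2), a 6.90-fold rise (log2 2.79, SE 0.430, edgeR adjusted p = 0.027). Both PRMT3-KD libraries were far above Ctrl, and they also differed from each other, with log2 differences of 3.26 and 2.08.

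Markers of the cell types that are rich in GPNMB were low in all libraries, and ACP5 was the one that rose. Of 13 macrophage and microglia markers 5 were in the table, with sums of 6.11 to 6.32 CPM in Ctrl and 3.54 to 4.05 CPM in PRMT3-KD. Most of this was CSF1R, the receptor of macrophage colony-stimulating factor, and PTPRC, the pan-leukocyte antigen CD45, had 5, 2, 5 and 7 counts. Of 6 melanocyte markers 3 were in the table, with sums of 1.02 to 2.04 CPM over all libraries. Of 4 osteoclast markers 2 were in the table, and DCSTAMP had at most 1 count per library. The other, ACP5, which encodes the lysosomal tartrate-resistant acid phosphatase, had 22 and 16 counts in Ctrl and 147 and 96 in PRMT3-KD, a rise of 2.72 on the log2 scale (SE 0.393, edgeR adjusted p = 0.024). Of 4 endothelial markers 3 were in the table, with sums of 27.5 to 29.6 CPM in Ctrl and 19.6 to 37.9 CPM in PRMT3-KD. Within that list KDR fell (log2 -0.86, edgeR adjusted p = 0.043), while CDH5 was at 5.05, 5.31, 5.08 and 25.4 CPM and stood apart in the second PRMT3-KD library alone. The part of these cell types in the GPNMB result was not tested.

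NPC1, which exports cholesterol from the lysosome, was at 36.5 and 36.8 CPM in Ctrl and 80.6 and 60.5 CPM in PRMT3-KD, a log2 difference of 0.95 (SE 0.159, edgeR adjusted p = 0.031). CD63, a tetraspanin of late endosomes and exosomes, was at 355 and 356 CPM in Ctrl and 651 and 495 CPM in PRMT3-KD, a log2 difference of 0.69 (SE 0.148, edgeR adjusted p = 0.046). As for GPNMB, the first PRMT3-KD library was the higher of the pair for both genes. Without that library CD63 was at 0.48 on the log2 scale, under the fold limit, and scaling by library totals alone also ended its call (edgeR adjusted p = 0.075). PRMT3 itself was at 3.03 CPM in the first PRMT3-KD library and 1.58 CPM in the second (log2 -2.66 and -3.57). A link between its remaining level and these genes was not tested.

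LAMP1 (chr13:113951554-113977987, plus strand, GRCh37), one of the main glycoproteins of the lysosomal membrane, was the member that fell. It was at 234 and 235 CPM in Ctrl and at 73.6 and 83.9 CPM in PRMT3-KD, 0.336 of the Ctrl level (log2 -1.57, SE 0.093, edgeR adjusted p = 0.014). LAMP2, its close relative and the member with the most CPM in this role, was at 878 and 872 CPM in Ctrl and 630 and 858 CPM in PRMT3-KD, with a log2 difference of -0.23 (SE 0.163, edgeR adjusted p = 0.358). LAMP1 was lower by similar amounts in both PRMT3-KD libraries (log2 -1.67 and -1.48), and LAMP2 was lower in the first (-0.47) and near Ctrl in the second (-0.03). The difference between the 2 genes was not itself tested.

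The calcium channel MCOLN1 had a log2 difference of -0.44 (edgeR adjusted p = 0.081), with 21.4 and 20.9 CPM in Ctrl and 17.0 and 14.2 CPM in PRMT3-KD. CD68, the glycoprotein macrosialin, CLN3, a membrane protein mutated in juvenile Batten disease, and SCARB2, the receptor that carries glucocerebrosidase to the lysosome, had log2 differences of 0.26, 0.11 and 0.01, and none passed the test. Of the exonic bases of CD68, 81.6% are shared with another gene annotated on the same strand, so its counts depend on how shared reads were assigned. The same limit holds for other members, among them IDS (75.9%), CTSD (27.3%), CLN3 (25.3%) and MAN2B1 (21.2%), summed over the genes that overlap each.

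**Figure D2:**
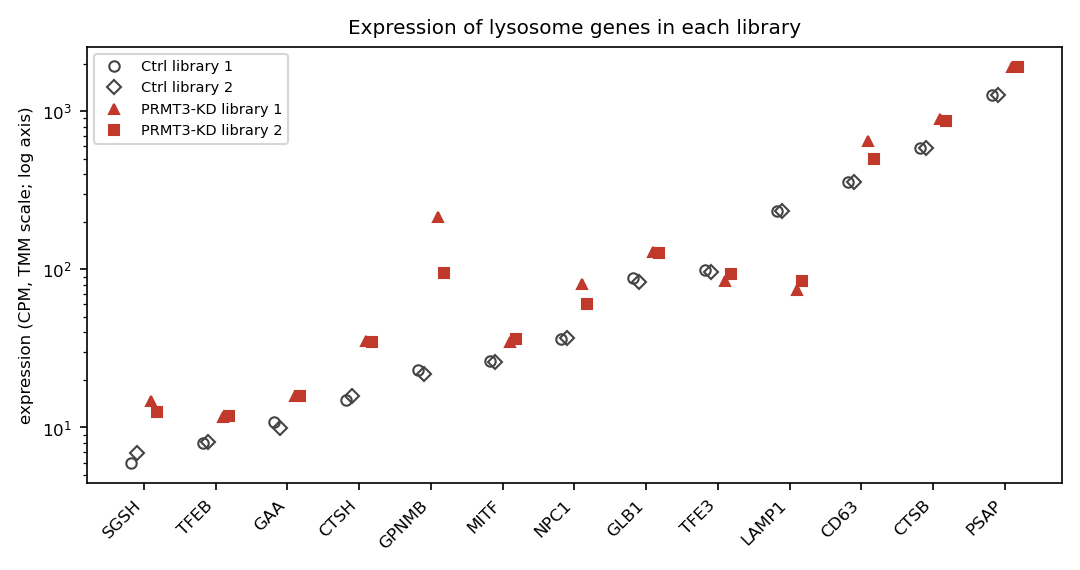
Level in CPM on the TMM scale (y axis, log scale) of 13 lysosome genes (x axis) in each of the 2 Ctrl libraries (open points) and 2 PRMT3-KD libraries (filled points). For GPNMB the PRMT3-KD points at 216 and 95.1 CPM stand above the Ctrl points at 23.2 and 21.9 CPM, and for LAMP1 those at 73.6 and 83.9 CPM stand below the Ctrl points at 234 and 235 CPM.

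Among the hydrolases and their partners, 5 of 32 tested rose and none fell past both limits. Of all genes tested 4.97% rose and 5.97% fell, shares that also apply to each enzyme group and to the pump members below. With no limit on fold, edgeR gave 1 hydrolase that was lower at an adjusted p under 0.05, GUSB. The median log2 difference was 0.42, with 27 above 0 and 5 below. Their summed level was 4641 and 4667 CPM in Ctrl and 6386 and 6216 CPM in PRMT3-KD. For this sum the 2 libraries of each group were close to each other and the groups were apart. PSAP, CTSD and CTSB, which had the most CPM, weigh most in it. Single members such as NPC2 and TPP1 were further apart between the PRMT3-KD libraries. The list is given by the substrates of the enzymes.

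Of the 10 proteases tested, 1 rose, and the median log2 difference was 0.47. CTSH, an aminopeptidase of the papain family, had 416 and 437 counts in Ctrl and 899 and 982 in PRMT3-KD, or 15.5 ± 0.617 and 35.0 ± 0.579 CPM (SD, n = 2), a 2.26-fold rise (log2 1.18, SE 0.092, edgeR adjusted p = 0.014). The 2 PRMT3-KD libraries were as close to each other for CTSH as the Ctrl libraries. CTSD, the main aspartic protease, was at 938 and 958 CPM in Ctrl and 1231 and 1167 CPM in PRMT3-KD, with a log2 difference of 0.34 (SE 0.072, edgeR adjusted p = 0.045) that was under the fold limit. CTSB, a cysteine protease, was just short of that limit at 0.584 on the log2 scale (SE 0.069, edgeR adjusted p = 0.020), with 587 and 587 CPM in Ctrl and 898 and 862 CPM in PRMT3-KD. CTSA, the carboxypeptidase that protects beta-galactosidase and neuraminidase, differed by 0.33 on the log2 scale (edgeR adjusted p = 0.042).

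The other proteases did not pass the test. CTSL, CTSF and CTSK had log2 differences of 0.54, 0.52 and 0.51, with edgeR adjusted p-values of 0.055, 0.091 and 0.193. TPP1, which cleaves tripeptides from N-termini, was at 74.0 and 73.8 CPM in Ctrl and at 52.1 and 86.5 CPM in PRMT3-KD, so the knockdown libraries lay on opposite sides of Ctrl. LGMN, the asparagine endopeptidase, was near its Ctrl level, at 37.4 and 35.7 against 36.4 and 37.8 CPM. CTSZ had only 14, 10, 21 and 10 counts.

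Of the 8 glycosidases, GAA and GLB1 rose, and the median log2 difference was 0.50. GAA, which degrades glycogen, was at 10.8 and 9.93 CPM in Ctrl and 15.8 and 15.8 CPM in PRMT3-KD (log2 0.61, SE 0.112, edgeR adjusted p = 0.036). GLB1, the lysosomal beta-galactosidase, was at 88.1 and 82.9 CPM in Ctrl and 129 and 128 CPM in PRMT3-KD (log2 0.59, SE 0.074, edgeR adjusted p = 0.020). GLB1 and PSAP, at 0.589 and 0.588, were just past the fold limit that CTSB missed. Without the first PRMT3-KD library GLB1 was at 0.58, and scaling by library totals alone ended the calls of GAA, GLB1 and PSAP, with log2 differences of 0.58, 0.56 and 0.56. With at least 10 counts required in every library, PSAP was at 0.584 and under the fold limit. The neuraminidase NEU1 and the fucosidase FUCA1 had differences over 1.5-fold, 0.64 and 0.67 on the log2 scale, but missed the adjusted p (0.060 and 0.077 by edgeR). Both were higher in the first PRMT3-KD library, NEU1 with 134 against 99.8 CPM and FUCA1 with 27.0 against 19.8 CPM. MANBA, MAN2B1 and HEXA, which trim mannose and hexosamine residues, had log2 differences of 0.41, 0.23 and 0.21, and GLA, the alpha-galactosidase, one of -0.22, none past the test.

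The 6 enzymes of glycosaminoglycan breakdown had a median log2 difference of 0.10 and were the least uniform of the hydrolases in sign. SGSH, the heparan sulfatase, was at 5.92 and 6.94 CPM in Ctrl and 14.6 and 12.5 CPM in PRMT3-KD, a 2.11-fold rise (log2 1.08, SE 0.161, edgeR adjusted p = 0.025). NAGLU, which acts on the same heparan sulfate chain, was at 19.5 and 19.7 CPM in Ctrl and 12.6 and 15.9 CPM in PRMT3-KD, with a log2 difference of -0.45 (SE 0.146, edgeR adjusted p = 0.0999). GUSB, the beta-glucuronidase, was lower at an adjusted p of 0.041 by edgeR but under the fold limit (log2 -0.44), with 85.3 and 87.3 CPM in Ctrl and 60.1 and 67.0 CPM in PRMT3-KD. GUSB has 18 named pseudogenes in the annotation, between which reads can be split. IDS, IDUA and ARSB had log2 differences of 0.13, 0.28 and 0.06, and their groups overlapped.

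None of the 5 lipid enzymes passed both limits, and their median log2 difference was 0.42. PPT1, which removes palmitate from proteins, was at 202 and 196 CPM in Ctrl and 253 and 250 CPM in PRMT3-KD (log2 0.34, edgeR adjusted p = 0.041). ASAH1, the acid ceramidase, had the largest difference of the lipid enzymes (log2 0.78, SE 0.193, edgeR adjusted p = 0.059), with 75.4 and 77.6 CPM in Ctrl and 156 and 108 CPM in PRMT3-KD. SMPD1, the acid sphingomyelinase, differed by 0.43 and ARSA by -0.16 on the log2 scale, with edgeR adjusted p-values of 0.060 and 0.545. LIPA, the acid lipase that frees cholesterol from its esters, differed by 0.42 (SE 0.133, edgeR adjusted p = 0.096). Its exons overlap those of the interferon-induced genes IFIT2 and IFIT3 on the other strand over 6.011% of their length, and both of these rose (log2 1.51 and 0.94). Whether counting used strand is not given in the sources used here, and the part of those reads in the LIPA counts was not tested. The same limit holds for other members whose exons overlap genes on the other strand over larger shares. Among them are CTSZ (31.7%), CTSD (23.4%), CTSA (21.5%), HEXA (14.1%) and IDUA (13.2%).

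The 3 lumenal partners were all higher in PRMT3-KD. PSAP, the precursor of the saposins that present sphingolipids to their enzymes, had the most CPM of all members, with 1259 and 1272 CPM in Ctrl and 1909 and 1895 CPM in PRMT3-KD (log2 0.59, SE 0.067, edgeR adjusted p = 0.019). GRN, the precursor of granulins, differed by 0.57 on the log2 scale (SE 0.087, edgeR adjusted p = 0.027), short of the fold limit, with 135 and 142 CPM in Ctrl and 216 and 194 CPM in PRMT3-KD. NPC2, which hands cholesterol to NPC1, was at 50.5 and 49.9 CPM in Ctrl and 109 and 63.8 CPM in PRMT3-KD. Both values were above Ctrl but far from each other, and NPC2 missed the test (log2 0.78, SE 0.269, edgeR adjusted p = 0.113).

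**Figure D3:**
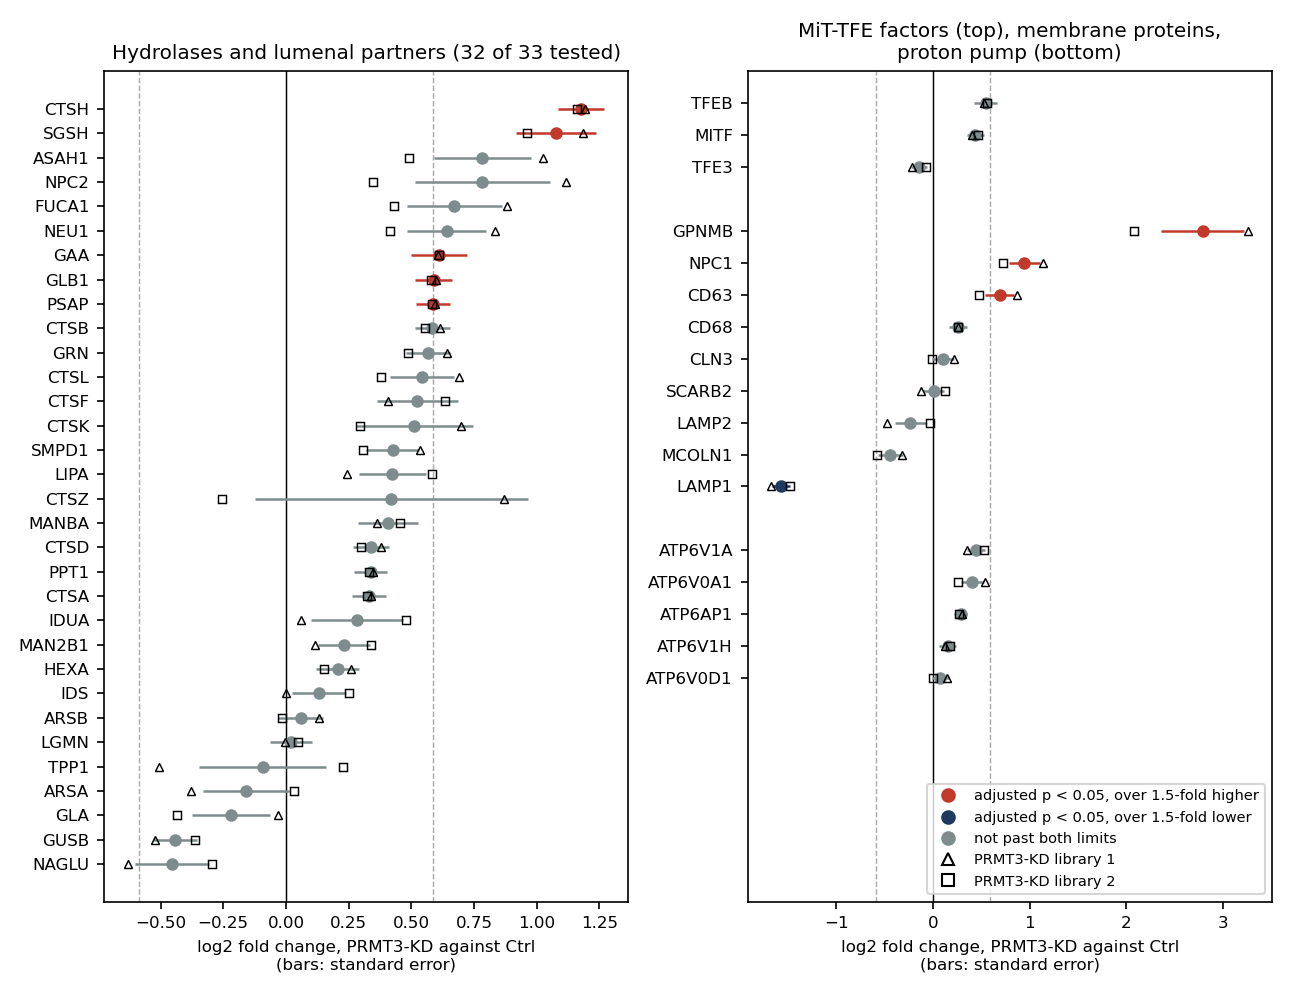
Log2 difference between PRMT3-KD and Ctrl (x axis) of the 49 tested lysosome genes, 1 gene a row, with the fitted value as a filled circle, its standard error as a bar, and each PRMT3-KD library against the Ctrl mean as a triangle (library 1) or square (library 2); dashed lines mark 1.5-fold. The triangles and squares nearly coincide for CTSH, GAA, GLB1 and PSAP and lie far apart for NPC2, TPP1 and GPNMB.

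Of the 5 proton pump members none passed both limits, and all 5 had a log2 difference above 0, with a median of 0.29. ATP6V1A, the catalytic subunit of the cytoplasmic V1 sector, was at 64.9 and 65.3 CPM in Ctrl and 83.2 and 94.1 CPM in PRMT3-KD (log2 0.45, SE 0.091, edgeR adjusted p = 0.042). ATP6AP1, an accessory subunit with the most CPM of these 5, was at 220 and 222 CPM in Ctrl and 272 and 267 CPM in PRMT3-KD (log2 0.29, SE 0.066, edgeR adjusted p = 0.053). ATP6V0D1 of the membrane sector V0, second in CPM, was at 94.5 and 98.7 CPM in Ctrl and 107 and 96.6 CPM in PRMT3-KD (log2 0.07), so its groups overlapped. ATP6V0A1, also of V0, and ATP6V1H of V1 had log2 differences of 0.41 and 0.15 and missed the test (edgeR adjusted p = 0.084 and 0.274).

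The pump was then read over all of its genes, since the 5 members are few of them. Of 24 V-ATPase genes 22 were tested, 4 rose and none fell, and by edgeR 9 were higher and none lower at an adjusted p under 0.05 with no limit on fold. Over all genes tested, 4.97% rose and 5.97% fell, and 8.39% were higher and 8.91% lower at that p. The median log2 difference of the pump genes was 0.43, with 19 above 0 and 3 below, and their summed level was 1522 and 1517 CPM in Ctrl and 2124 and 1964 CPM in PRMT3-KD. The 4 that rose were not members. ATP6V0E1 of V0 was at 123 and 122 CPM in Ctrl and 206 and 213 CPM in PRMT3-KD (log2 0.77, SE 0.069, edgeR adjusted p = 0.015). ATP6V1C1 and ATP6V1B2 of V1 rose by 0.76 and 0.69 on the log2 scale (edgeR adjusted p = 0.020 and 0.021). The fourth was ATP6V0C, the proteolipid of the V0 ring, with 0.62 (edgeR adjusted p = 0.033), named here as the last of a count of 4. Subunits of both sectors were thus among the risen genes, whereas TCIRG1, the V0 subunit a of osteoclasts, had 64.2 and 66.3 CPM in Ctrl and 45.3 and 70.8 CPM in PRMT3-KD.

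**Figure D4:**
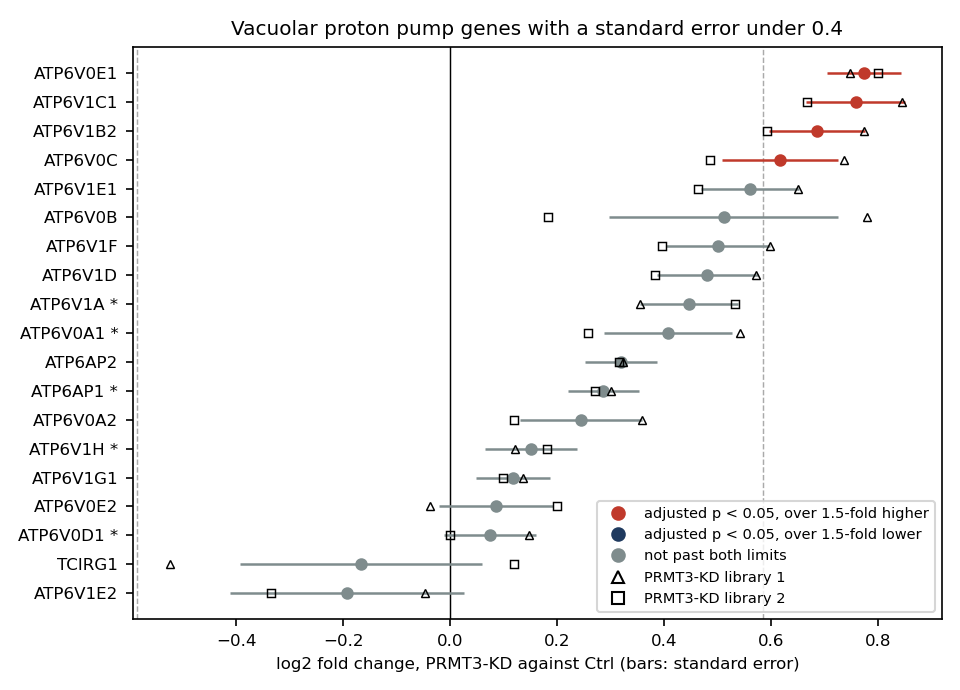
Log2 difference between PRMT3-KD and Ctrl (x axis, bars are standard errors) of 19 V-ATPase genes, those of the 22 tested whose standard error was under 0.4; an asterisk marks the 5 members. ATP6V0E1, ATP6V1C1, ATP6V1B2 and ATP6V0C, from 0.62 to 0.77, lie beyond the 1.5-fold line.

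Set per length, the levels of the members spanned a wide range in Ctrl cells and stood in another order in PRMT3-KD for many of them. CTSD and PSAP were highest, both at 461 CPM per kb of the canonical transcript, followed by CD63 at 347, CTSB at 157 and LAMP2 at 134. PPT1 and LAMP1 were next to each other at 87.2 and 86.8 CPM per kb in Ctrl. Within each of these 2 pairs the genes differed by less than the larger of their SDs between the Ctrl libraries. In PRMT3-KD PSAP was at 692 CPM per kb and CTSD at 583, ATP6AP1 at 131 and LAMP2 at 114. LAMP1 was then at 29.2 CPM per kb, and GPNMB, 35th in order in Ctrl with 8.50, was at 58.7. Lengths of one transcript a gene were used, and the order is a description of these libraries.

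A wider view came from genes outside the 50 that belong to the same organelle, sort its hydrolases, control MiT-TFE factors or inhibit cathepsins. For short, all of them are called other lysosomal genes below. Of 107 such genes listed, 105 were in the table and 100 were tested. In all 14 rose and 3 fell, where 4.97% of all genes tested rose and 5.97% fell, shares that apply to each of the lists named next. These 100 genes had a median log2 difference of 0.24, with 75 above 0 and 25 below. The 3 that fell were 1 gene of the sorting list and 2 of the MiT-TFE control list. Among 29 further hydrolases 3 rose and none fell, ACP5 and PLA2G15 among them. PLA2G15, a lysosomal phospholipase, was at 54.8 and 50.2 CPM in Ctrl and 104 and 90.2 CPM in PRMT3-KD (log2 0.89, edgeR adjusted p = 0.020).

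Among 27 further membrane proteins 4 rose and none fell past both limits. OSTM1, the partner of the chloride-proton exchanger CLCN7, was at 156 and 150 CPM in Ctrl and 235 and 320 CPM in PRMT3-KD (log2 0.86, edgeR adjusted p = 0.038). SLC38A9, an arginine sensor of the mTORC1 pathway, and TPCN1, a cation channel, rose by 0.74 and 0.73 on the log2 scale (edgeR adjusted p = 0.022 and 0.028). CD164, a sialomucin, also rose (log2 0.68, edgeR adjusted p = 0.020) and is named as the last of this count.

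Among 9 genes that sort hydrolases to the lysosome, 1 fell and none rose. GNPTAB, which encodes the phosphotransferase that begins the mannose 6-phosphate tag on hydrolases, was at 86.7 and 84.5 CPM in Ctrl and 31.5 and 31.6 CPM in PRMT3-KD (log2 -1.44, SE 0.073, edgeR adjusted p = 0.014). The fitted level was 0.369 of that in Ctrl, and the 2 knockdown libraries were close to each other. The receptors that bind the tag, M6PR and IGF2R, had log2 differences of 0.29 and 0.06, neither past the test (edgeR adjusted p = 0.089 and 0.522).

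In a list of 16 genes for the control of MiT-TFE factors through mTORC1, 2 rose and 2 fell. The list also held TFEC, a further member of the family, which had 7, 11, 10 and 8 counts and did not pass the test. RRAGD and RRAGC, the GTPases that bring TFEB and mTORC1 to the lysosome, rose by 1.11 and 0.63 on the log2 scale (edgeR adjusted p = 0.019 and 0.021), and RRAGD was at 6.93 and 7.67 CPM in Ctrl and 15.5 and 16.1 CPM in PRMT3-KD. FNIP2, a partner of folliculin, and MLST8, a subunit of both mTOR complexes, had log2 differences of -0.78 and -0.69 (edgeR adjusted p = 0.036 and 0.019). With library totals alone FNIP2 missed the test (edgeR adjusted p = 0.052). MTOR itself differed by 0.02 and did not pass the test. Of the inhibitors of cathepsins, CSTB rose (log2 0.61, edgeR adjusted p = 0.021; 0.57 without the first PRMT3-KD library, under the fold limit) and CST3 did not pass the test (log2 0.08).

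The 3′ untranslated regions of the members were searched for the 7 bases CAGCTCA on the transcript's strand, a word that an earlier scan of these same fold changes had picked out, so that the values are a description. It was present in 5 of 49 tested members (10.204%) and in 2214 of 12750 tested genes (17.365%). LAMP1 held it at 2 places, at chr13:113977500-113977529 and chr13:113977678-113977707 on the plus strand, in GRCh37. The 30 bases around each are shown because LAMP1 is the member that fell, with the word in capitals.
LAMP1, first: tctaatgtctgCAGCTCAagggctggcact
LAMP1, second: gtacacgggacCAGCTCAcgtaatgcattg
Over all tested genes the median log2 difference was -0.11 with the word and 0.03 without it. Over the members it was 0.41 with the word and 0.37 without it, and the other 4 members that held it were ATP6V0A1, CTSB, IDS and LIPA, whose log2 differences were all above 0. Among 99 other lysosomal genes 13 held the word, with a median of 0.09 with it and 0.26 without it, and of these 13 genes 2 fell and none rose. Of the 2214 holders among all tested genes 258 fell and 72 rose. Beside these counts, 5.97% of all genes tested fell and 4.97% rose. Because the word was picked from these fold changes, the counts of fallen holders are no test of it. The lengths of the regions were not taken into account.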

How the data were processed

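Total RNA of U251 cells (2 Ctrl and 2 PRMT3-KD libraries) was sequenced by the authors on an Illumina instrument. The authors deposited raw read counts per gene, made with TopHat on hg19 and Cufflinks. Versions, annotation, strandedness and gene filters are not given in the sources used here. Of 15576 rows, 1 duplicate was removed.

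Counts were tested in R 4.3.3 with edgeR 4.0.16 (filterByExpr, minimum count 10 and total 15, TMM, glmQLFit, glmQLFTest, group as the only term) over 13172 genes. Self-tests were run on simulated data. Of the identifiers, 99.9% were found in GENCODE 44 as lifted to GRCh37. Members and gene lists were chosen with earlier results of these data known. Values in every library are given for GPNMB, the MiT-TFE factors, members past both limits and the 2 members of each role with the most CPM, and for further members to show the spread. From each other list up to 3 genes past both limits with the largest change and at least 5 CPM were named. One gene of these lists is not reported here. An exact permutation test of 2 against 2 libraries cannot go below p = 0.333 and was not used. The alternatives were DESeq2 1.42.0, limma 3.58.1 (voom), other scalings, other filters, a replicate block, no fold limit and each library left out.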

Additional observations from a re-analysis of the deposited data

How the results depend on the processing

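Counts of genes past both limits varied with which libraries were used. Over the 4 fits that each dropped 1 library, the count was 0 to 18 for the members (9 with all libraries), 0 to 32 for the other lysosomal genes (17) and 0 to 3066 for all genes (1441). The 0 counts came from the edgeR fits that left out a Ctrl library, in which the lone Ctrl library was taken to vary as the PRMT3-KD pair. Without PRMT3-KD library 2 the members' median log2 difference was 0.35, and without library 1 it was 0.33. Over all genes tested it was -0.0055 and -0.010. DESeq2 gave 14 of 49 members (13 higher, 1 lower), beside 1838 of 12857 genes tested (842 higher, 996 lower). Scaling by library totals only gave 5 members (4 higher, 1 lower), beside 1275 of 13172 genes tested (521 higher, 754 lower). No fold limit gave 18 members, 28 of the other lysosomal genes and 2278 of all genes. CD63, GAA, GLB1 and PSAP were those lost with library totals, where MITF, TFEB, CTSA, CTSD and PPT1 were also over an adjusted p of 0.05. CTSB, ASAH1, NEU1, FUCA1 and NPC2 were those gained with DESeq2. LAMP1, GPNMB, NPC1, CTSH and SGSH kept their calls in each of the 9 settings that used all 4 libraries and the fold limit.

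With the replicate number as a block there were 10 members, 17 other lysosomal genes and 1464 of all genes, of which 8, 17 and 1274 were past both limits without the block. GAA lost its call (adjusted p = 0.063), ASAH1 and FUCA1 gained theirs, and MITF, TFEB, CTSA, CTSD, PPT1, ATP6V1A and GUSB were over an adjusted p of 0.05. The labels do not say that a number marks a shared batch, and the deviations of same-numbered libraries had a correlation of 0.0379 across genes, so the block was not used. The sign turned for SCARB2 (log2 -0.029) and LGMN (-0.010) with library totals only. With libraries left out, SCARB2 ran from -0.130 to 0.129, LGMN from -0.014 to 0.056, CLN3 from -0.0058 to 0.210, CTSZ from -0.299 to 0.916, TPP1 from -0.509 to 0.229, IDS from -0.0052 to 0.254, ARSB from -0.014 to 0.127 and ARSA from -0.385 to 0.034. None of these 8 passed the test with all libraries. The causes of these shifts were not tested. Low counts limit CTSS, CTSZ and ACP5.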
